A study of Mus musculus with 19 samples.

Results

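The 6 lymphomas with the most and the 6 with the least RNA of the CD3 genes were compared across genotype and age at onset, 12 of the 19 tumours sequenced. The 18 tumours other than HET_early_2 were ranked by the mean of log2(normalised read count + 1) of Cd3d, Cd3e and Cd3g, and the ends of that ranking are called T cell rich and T cell poor below. The sets were thus chosen by the measured values of these 3 genes, which get no test. All 19 were lymphomas of Eμ-Myc mice, whose Myc transgene is driven in B lineage cells by the enhancer of the immunoglobulin heavy chain locus, so the transgene was present in every group. Per the labels, the mice were either wild type for Bptf (WT) or carried 1 deleted Bptf allele (HET, Bptf+/Δ), and tumours were classed by early or late onset. Bptf codes for the core subunit of NURF, a complex that slides nucleosomes. Each library was bulk polyadenylated RNA of 1 tumour, and the number in its name only tells tumours of a group apart. The T cell rich set held 2 WT and 4 HET tumours, 2 of early and 4 of late onset. The T cell poor set held 5 WT and 1 HET tumours, 3 of early and 3 of late onset.

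The T cell antigen receptor is a pair of clonally varied chains, mostly alpha and beta and less often gamma and delta, held at the surface by the invariant CD3 chains gamma, delta and epsilon and the zeta chain. The variable pair binds peptide on an MHC molecule and the invariant chains carry the tyrosine motifs that the kinase Lck phosphorylates. A lymphoma of B cells grows in lymphoid tissue that also holds T cells, macrophages, dendritic cells and stroma, so T cell transcripts in bulk RNA of such a tumour are read as a measure of those cells. In bulk samples fewer T cells and less T cell RNA per cell cannot be told apart.

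The rule rests on 3 neighbouring genes, and their upstream sequences are shown because the fourth signalling chain, zeta, did not follow them in every tumour. In GENCODE M21 (GRCm38), Cd3g lies at chr9:44969572-44980431 on the minus strand, Cd3d at chr9:44981786-44987339 on the plus strand and Cd3e at chr9:44998740-45009627 on the minus strand. The 3 genes span 40.1 kb, and Cd3g and Cd3d start 1355 bases apart in opposite directions. Cd247, which encodes zeta, lies on another chromosome, at chr1:165788681-165877277 on the plus strand. The 250 bases before each gene's start, from RefSeq on GRCm38.p6, are given 5′ to 3′ on the gene's own strand, with capitals at GGAAGT, a form of the ETS family core, or CAGGTG, an E-box, and at their complements ACTTCC and CACCTG. They cover chr9:44980432-44980681 for Cd3g, chr9:44981536-44981785 for Cd3d, chr9:45009612-45009861 for Cd3e and chr1:165788431-165788680 for Cd247. RefSeq and GENCODE place the start of Cd3e differently, so its window reaches past the GENCODE start at 45009627. The capitals in Cd3e lie across that GENCODE start.
Cd3g: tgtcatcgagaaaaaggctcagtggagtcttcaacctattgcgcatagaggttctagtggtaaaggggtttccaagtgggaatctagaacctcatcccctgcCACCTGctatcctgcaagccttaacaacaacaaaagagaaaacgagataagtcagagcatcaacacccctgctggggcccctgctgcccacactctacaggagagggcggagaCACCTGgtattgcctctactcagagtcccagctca
Cd3d: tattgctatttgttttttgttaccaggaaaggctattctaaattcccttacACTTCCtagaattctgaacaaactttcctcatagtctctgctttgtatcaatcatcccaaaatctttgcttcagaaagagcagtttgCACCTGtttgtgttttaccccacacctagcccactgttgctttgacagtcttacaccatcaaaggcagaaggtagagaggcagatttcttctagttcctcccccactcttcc
Cd3e: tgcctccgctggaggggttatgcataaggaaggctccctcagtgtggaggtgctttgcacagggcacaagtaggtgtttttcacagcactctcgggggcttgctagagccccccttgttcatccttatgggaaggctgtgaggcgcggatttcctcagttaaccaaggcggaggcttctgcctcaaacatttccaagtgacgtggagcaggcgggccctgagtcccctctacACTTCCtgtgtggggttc
Cd247: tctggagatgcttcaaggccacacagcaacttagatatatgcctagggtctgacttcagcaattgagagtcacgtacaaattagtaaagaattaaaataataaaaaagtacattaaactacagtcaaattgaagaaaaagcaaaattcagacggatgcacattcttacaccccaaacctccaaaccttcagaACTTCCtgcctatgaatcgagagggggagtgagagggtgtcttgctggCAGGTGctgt
On both strands, Cd3g held 2 matches to the E-box and none to the ETS letters, Cd3d held 1 of each, Cd3e held 1 ETS match and Cd247 held 1 of each, and no match overlapped another. Of 27025 promoter windows of this length, 20% held GGAAGT, 17.1% held CAGGTG and 3.4% held both, so these letters are common and a match marks no known site.

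Cd3d ran from 33.7 to 231.4 normalised counts in the T cell rich libraries (median 141.4) and from 1.0 to 4.8 in the T cell poor ones (median 3.4). Cd3e ran from 31.1 to 131.5 (median 96.8) against 0.0 to 2.7 (median 1.1), and Cd3g from 39.6 to 297.6 (median 201.4) against 2.0 to 34.6 (median 4.8). These values chose the libraries and were not tested. The score was highest in WT_late_2 (7.71, onset at 76 weeks), followed by HET_late_4 (7.52, 66 weeks), HET_late_2 (7.47, 44 weeks), WT_early_6 (6.73, 10 weeks), HET_late_1 (5.67, 30 weeks) and HET_early_4 (5.15, 12 weeks). The T cell poor libraries were HET_late_3 (2.68, 30 weeks), WT_early_1 (2.33, 9 weeks), WT_early_5 (1.98, 13 weeks), WT_late_4 (1.97, 38 weeks), WT_late_5 (1.77, 28 weeks) and WT_early_3 (1.18, 17 weeks). The ranking has no gap at its upper boundary, where HET_early_4 at 5.15 stood next to HET_early_3 at 5.01, and only a small one at the lower boundary, where WT_early_2 at 3.02 stood next to HET_late_3 at 2.68. HET_late_3 was the odd member of the poor set, with Cd3g at 34.6 beside Cd3d at 3.1 and Cd3e at 0.8.

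**Figure D1:**
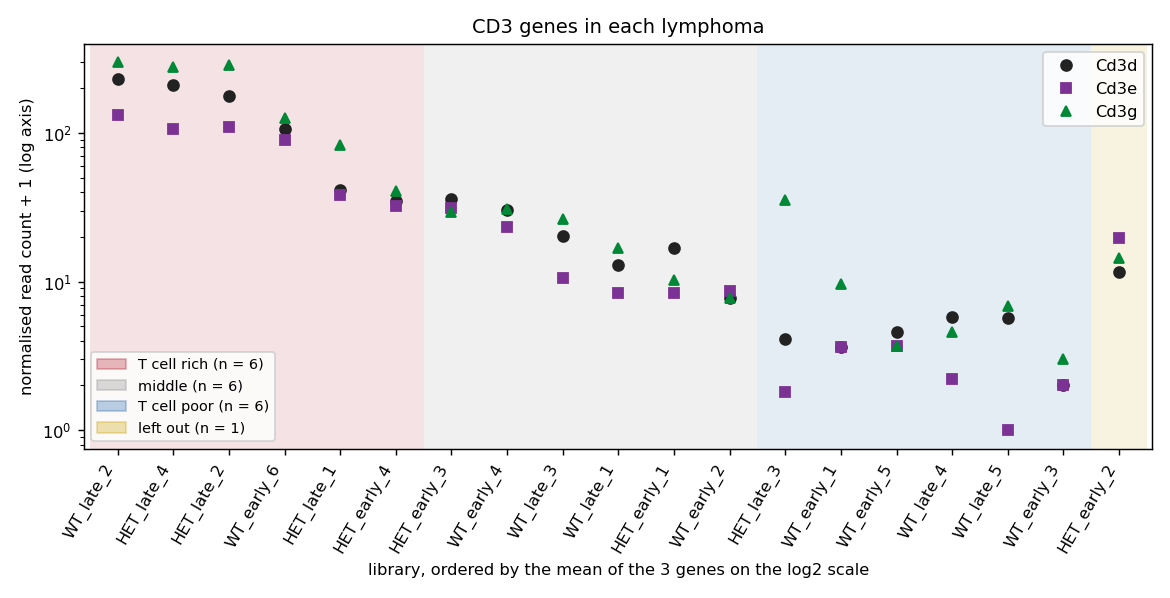
Normalised read counts plus 1 (log axis) of Cd3d, Cd3e and Cd3g, 1 point per gene and library, with libraries ordered by their mean on the log2 scale and shaded by set (6 T cell rich, 6 middle, 6 T cell poor, 1 left out). The T cell rich libraries all lie above 31 for each gene, and in HET_late_3 Cd3g (34.6) stands far above Cd3d (3.1) and Cd3e (0.8).

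Depth overlapped between the sets, with 8995949 to 11506496 recovered reads per T cell rich library and 8926911 to 12350345 per T cell poor library (exact two-sided permutation p = 0.872). Principal components were taken from the 1000 most variable genes over all 19 libraries, HET_early_2 included. The second component held 21.3% of the variance of these genes, and 5 late libraries stood apart on it. They were WT_late_2, HET_late_4, HET_late_2, HET_late_1 and WT_late_1, so 4 of the 6 T cell rich libraries, 1 middle and 0 T cell poor libraries were among them. Eef1a1, a translation elongation factor, did not lead 2 of the T cell rich libraries: Igha took 5.55% of the reads of HET_late_4, and Bpifa2, a salivary protein, took 5.07% of those of WT_early_6. Pan-B markers were present in all 12, with Cd79a, a B cell receptor signalling chain, at 517.5 to 8868.0 in the rich set and 4089.4 to 11924.5 in the poor set.

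Neither genotype nor onset differed between the sets past a threshold of 0.05. Heterozygotes made up 4 of 6 T cell rich and 1 of 6 T cell poor tumours, a difference of 50.0 percentage points (two-sided Fisher's exact p = 0.242, the smallest these totals allow being 0.0152). Onset class gave a Fisher's exact p of 1.0. Onset came at 39.7 ± 27.5 weeks (SD, n = 6) in the T cell rich and 22.5 ± 11.2 weeks (SD, n = 6) in the T cell poor set, 17.2 weeks later on average, with an exact two-sided permutation p of 0.199. The 2 T cell rich tumours of early onset came at 10 and 12 weeks, so the ranges overlapped.

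Across all other genes, 447 of 19552 tested (2.29%) passed the test, limma on log2(value + 1) with a Benjamini-Hochberg adjusted p under 0.05. More of them were higher in the T cell rich set (399 genes, 2.04%) than lower (48 genes, 0.245%). The median difference over all genes tested was 0.07 on the log2 scale, and 54.7% of them had a positive difference. The list counts below are to be read beside that share and the shares called. The T cell rich libraries lay wholly above the poor ones for 355 genes (1.82%) and wholly below for 95 (0.486%). With genotype and onset class as covariates 158 genes passed, 151 of them among the 447. When the score was used as a number over the 13 ranked libraries that did not stand apart on the second component, an alternative chosen after seeing the data, 83 genes passed, all higher with the score. Of these 58 were among the 447, and all 447 kept their sign. The 13 libraries include every T cell poor library, WT_early_6 and HET_early_4, which were also used to call the 447. The kept signs are thus no independent check. No gene passed in the lower direction there with limma (450 at an unadjusted p under 0.05, no other tool run). The count also rested on single libraries. It was 225 without WT_late_2, 185 without HET_late_4, 286 without HET_late_2, 295 without HET_late_3, 217 without WT_early_1, 202 without WT_late_4, 216 without WT_late_5 and 191 without WT_early_3, and it grew to 861 without HET_early_4. In every fit that left out 1 library 156 of the 447 passed, and unless another statement follows, each gene called below is among those 156.

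The receptor chains followed the CD3 genes closely. Of the 11 receptor chain and coreceptor genes, all had a positive difference and 7 passed in the higher direction against 2.04% of all genes, with a median difference of 3.59 on the log2 scale. These genes are usually read as T cell markers, as are the CD3 genes that chose the libraries, so their direction is not independent evidence. The cells that made them cannot be told apart in bulk RNA. Cd4, Cd8b1 and Cd247 varied widely per unit of Trac, as given below. Trac, the constant region of the alpha chain (chr14:54220521-54224206, plus strand), was at 342.5 in WT_late_2, 189.7 in HET_late_4, 180.0 in HET_late_2, 138.7 in WT_early_6, 71.4 in HET_late_1 and 56.4 in HET_early_4. It was at 1.6 in HET_late_3, 3.5 in WT_early_1, 3.6 in WT_early_5, 2.4 in WT_late_4, 3.5 in WT_late_5 and 1.0 in WT_early_3, which is 1 to 4 reads per library. No T cell poor library came near the lowest T cell rich one. Its log2 difference was 5.33 ± 0.47 (SE; limma adjusted p = 0.000263). The beta chain constant regions Trbc1 and Trbc2 (chr6:41538218-41539881 and chr6:41546730-41548352, plus strand) differed by 5.04 and 4.88 (limma adjusted p 0.000847 and 0.000567), and as near-identical copies they may share reads.

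Among the coreceptors, which bind MHC beside the receptor, Cd8a and Cd4 rose and Cd8b1 did not pass. Cd8a (chr6:71373427-71379173), the CD8 alpha chain, ran from 64.0 to 269.3 (median 183.8) in the rich and from 6.0 to 13.9 (median 7.9) in the poor set, a log2 difference of 4.0 ± 0.39 (SE; limma adjusted p = 0.000266). Cd4, which binds MHC class II and is also carried by some myeloid cells, ran from 379.4 to 2357.7 (median 1051.6) against 42.4 to 155.9 (median 78.7), a log2 difference of 3.59 ± 0.45 (SE; limma adjusted p = 0.00134). Neither gene overlapped between the sets. Cd4 did not track Trac from tumour to tumour. Per unit of Trac it ran from 2.0 (HET_late_4) to 31.27 (HET_late_1) in the rich set and was 416.43 in the middle library WT_late_1. In the poor set the ratio ran from 12.0 to 73.0, over only 1 to 4 Trac reads per library, so its counting error was wide. Trdc, the delta chain constant region, was far weaker, with 3.5 to 20.2 (median 7.3) against 0.0 to 0.9 (median 0.0) and a log2 difference of 3.08 ± 0.44 (SE; limma adjusted p = 0.00421). Tcrg-C1, a gamma chain constant region, differed by 2.26 (limma adjusted p = 0.0235), but the call was lost without WT_late_2, HET_late_4, WT_late_4, WT_late_5 or WT_early_3, with adjusted p up to 0.0596. Tcrg-C2 was listed at 0 in each T cell poor library and ran from 0.0 to 24.1 in the rich set (limma adjusted p = 0.0515). Against a floor of 3 counts over the poor set its mean was at least 13.4-fold higher in the rich set, and with it at that bound the median of the 11 genes was 3.70. Tcrg-C4 (limma adjusted p = 0.218), Cd8b1 (0.122) and Cd247 (0.499) did not pass.

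The beta chain variable segments give a view of how many receptor rearrangements a library held. In the T cell rich libraries 38 to 137 reads fell on 15 to 17 of the 17 Trbv genes in the table, against 1 to 5 reads in the T cell poor libraries. The most used segment held 11.4% of Trbv reads in HET_late_4 (Trbv26), 14.3% in HET_late_1 (Trbv26), 15.8% in HET_late_2 (Trbv1), 19.6% in WT_early_6 (Trbv3) and 20.4% in WT_late_2 (Trbv13-2). HET_early_4 differed, with 31 of 72 reads on Trbv13-1, or 43.1% (95% Wilson interval 32.3% to 54.6%, counting error only). The 5 other intervals had upper ends of 19.7% to 30.4%, below the lower end for HET_early_4. Trbv13 members resemble each other, so the split of reads among them is uncertain.

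Several genes usually read as T cell markers did not follow the CD3 genes from tumour to tumour. Cd247 was highest in a T cell poor library, at 1496.2 in HET_late_3, where Trac was 1.6, and it was 49.8 in WT_early_5 and 2.4 to 8.5 in the other 4 poor libraries. In the rich set it ran only from 20.9 to 114.4 (median 64.7). Its log2 difference of 1.60 ± 1.23 (SE) did not pass (limma adjusted p = 0.499) and turned to -2.01 in edgeR and -1.96 in DESeq2. HET_late_3 also had 2920.0 of Il2ra, the high-affinity interleukin 2 receptor chain, which was 17.7 to 58.8 in the rich set. Set against Trac, Cd247 was 0.29 to 0.60 per unit of Trac in the rich libraries and 951.0 in HET_late_3. The last ratio divides by very few reads, as Trac had 1 to 4 per T cell poor library.

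Cd7, Cd5 and Cd8b1 were very high in 2 T cell rich libraries and in 1 middle one, all of them among the 5 that stood apart on the second component. Cd8b1, the CD8 beta chain, was at 3847.0 in HET_late_2, 1614.3 in HET_late_1 and 2411.1 in the middle library WT_late_1, and at 41.3 to 123.5 in the other 4 T cell rich libraries. Cd8b1 per unit of Trac was 21.37 in HET_late_2 and 22.6 in HET_late_1, against 0.2 to 0.73 in the other 4. In the T cell poor set, with 1 to 4 Trac reads per library, that ratio was 105.0 in HET_late_3 and 27.67 in WT_late_5. There Trac was 1.6 and 3.5, and the ratio was 0.75 to 5.0 in the remaining poor libraries. Cd7, a surface protein of T and NK cells, was at 2215.1 in HET_late_2, 2062.9 in HET_late_1 and 14.3 to 42.2 in the other 4 T cell rich libraries. Against the T cell poor set (1.2 to 3.9), its log2 difference was 4.91 (limma adjusted p = 0.0485), and the call held without WT_late_2, WT_early_6 or HET_early_4 only, with adjusted p up to 0.105 without another library. Cd5, a negative regulator of antigen receptor signals, ran from 32.8 to 1312.8 (median 80.0) against 1.7 to 8.0 (median 3.2), a log2 difference of 5.11 ± 0.80 (SE; limma adjusted p = 0.00625).

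**Figure D2:**
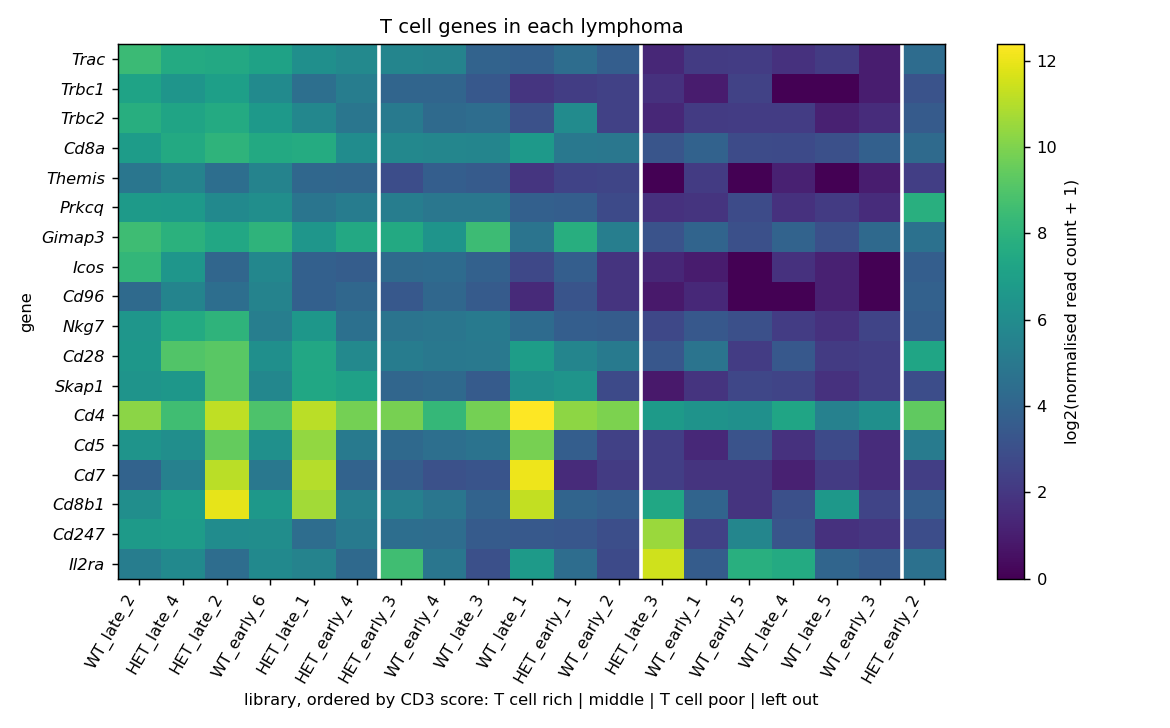
log2(normalised read count + 1) of 18 T cell genes (rows) in the 19 libraries (columns, ordered by the CD3 score, with white lines between the T cell rich, middle, T cell poor and left-out libraries). Trac falls from 342.5 to 1.0 along the order, while Cd7 and Cd8b1 peak in HET_late_2, HET_late_1 and WT_late_1, and Cd247 and Il2ra peak in HET_late_3 (1496.2 and 2920.0).

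Of 25 genes that act downstream of the receptor, 21 had a positive difference and 9 passed, all higher. Among them were Skap1, Cd5, Gimap3, Themis, Sh2d1a, Prkcq, Txk and Trat1, and all 9 passed in every fit that left out 1 library. Gimap3, a GTPase of lymphocyte survival, ran from 91.5 to 374.1 (median 209.5) against 7.1 to 17.7 (median 11.2), a log2 difference of 4.10 ± 0.38 (SE; limma adjusted p = 0.000263). Skap1, an adaptor that links the receptor to integrins, differed by 5.08 ± 0.55 (SE; limma adjusted p = 0.000622), with 52.3 to 590.5 against 0.8 to 5.3. Prkcq, the protein kinase C of the T cell synapse, differed by 3.92 ± 0.44 (SE; limma adjusted p = 0.00078), with 27.0 to 106.0 against 2.0 to 6.2. The proximal kinases did not pass. Lck differed by 1.06 (limma adjusted p = 0.381) and Zap70 by 0.33 (0.757), and Cd2, an adhesion receptor, by -0.20 (0.938). Among the T cell poor libraries Lck stood at 14.75 per unit of Trac in WT_early_1 and at 56.5 or more in the other 5, and at 1.6 to 6.83 in the T cell rich libraries. The ratios of the poor set divide by 1 to 4 Trac reads per library, so their counting error was wide.

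Costimulatory and checkpoint receptors had the same direction as the receptor chains. All 17 had a positive difference (median 2.57 on the log2 scale) and 9 passed, 6 of them (Cd27, Cd28, Cd96, Icos, Pdcd1 and Tox) in every fit that left out 1 library. Cd28, the main costimulatory receptor, ran from 56.4 to 599.2 (median 131.4) against 3.5 to 26.1 (median 6.7), a log2 difference of 4.34 ± 0.66 (SE; limma adjusted p = 0.00517). Icos, the inducible costimulator, ran from 11.8 to 297.6 (median 34.1), highest in WT_late_2, against 0.0 to 2.4 (median 1.0), a log2 difference of 4.48 ± 0.74 (SE; limma adjusted p = 0.00887). Cd96, a receptor of T and NK cells, differed by 4.07 ± 0.47 (SE; limma adjusted p = 0.000847) and Tox, a factor of T cell development and exhaustion, by 4.58 ± 0.75 (SE; limma adjusted p = 0.00841). No T cell poor library reached the lowest T cell rich one for these 4 genes.

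The ligands of these receptors differed less. Of 12 tested, 10 had a positive difference (median 1.23) and 3 passed, and none of the 3 passed in every fit that left out 1 library. Cd274, which encodes PD-L1, ran from 140.6 to 555.6 (median 302.1) against 73.0 to 124.4 (median 87.8), a log2 difference of 1.65 ± 0.35 (SE; limma adjusted p = 0.0252). Its call was lost without WT_late_2, HET_late_4, HET_late_1, WT_late_4, WT_late_5 or WT_early_3, with adjusted p up to 0.0632. The middle library WT_late_1, with Trac at 12.9, had 448.1 of Cd274. Lgals9, a ligand of TIM-3, was at 254.4 to 3417.2 in the rich set and 1615.6 to 6342.4 in the poor set (log2 difference -2.32, limma adjusted p = 0.053).

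Many genes of killer lymphocytes were higher. All 16 cytotoxic genes had a positive difference (median 2.63) and 8 passed. Nkg7, a granule protein, ran from 22.7 to 265.0 (median 90.5) against 2.4 to 9.6 (median 5.2), a log2 difference of 3.82 ± 0.57 (SE; limma adjusted p = 0.00501). Ccl5, a chemokine of activated T cells, ran from 37.9 to 2115.8 (median 388.9) against 9.4 to 37.4 (median 15.4), a log2 difference of 4.14 ± 0.72 (SE; limma adjusted p = 0.0115), so the sets were separate but touched. Ctsw, Eomes, Klrg1 and Gzmk also passed in every fit that left out 1 library. Of 12 NK cell genes 2 passed, Il2rb (log2 difference 3.86 ± 0.52, SE; limma adjusted p = 0.00248) and Txk (3.25, 0.0125), both also expressed by T cells. The summed level of the NK list was 99.3 to 733.2 in the rich set and 11.8 to 47.2 in the poor set, and its part in the cytotoxic difference was not tested.

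Subset genes were weaker. Of 9 regulatory T cell genes 8 had a positive difference and 2 passed. Ikzf2, which encodes Helios, ran from 13.0 to 104.0 (median 28.9) against 1.2 to 6.2 (median 3.3), a log2 difference of 2.96 ± 0.53 (SE; limma adjusted p = 0.0125). Foxp3, the lineage factor of regulatory T cells, was at 63.2 in WT_late_2, 18.1 in HET_late_4, 4.3 in HET_late_2, 22 in WT_early_6, 3.5 in HET_late_1 and 9.3 in HET_early_4, and at 0.8 to 2.4 in the poor set. Per unit of Trac it was 0.1 to 0.18 in 4 rich libraries and 0.02 and 0.05 in HET_late_2 and HET_late_1. Its log2 difference of 2.6 ± 0.6 (SE) passed (limma adjusted p = 0.0382), and the call held without HET_late_2, HET_late_1 or HET_early_4 only, with adjusted p up to 0.0893 without another library. Of 16 helper and effector genes all had a positive difference and 3 passed, led by Cxcr3, a receptor for interferon-induced chemokines (log2 difference 3.87 ± 0.69, SE; limma adjusted p = 0.0125). Of 12 naive and memory genes 7 had a positive difference and 1 passed, with a median of 0.09 beside 0.07 over all genes. Of all genes 54.7% had a positive difference and 2.04% passed in the higher direction. Over the 13 libraries 11 of the 12 had a positive slope, with a median of 0.13 per unit of score beside 0.01 over all genes. Il7r, the interleukin 7 receptor chain that B cell progenitors also carry, was at 33.1 to 506.8 in the rich set and 7.0 to 1922.7 in the poor set. No gene of the thymus list passed in limma (0 of 8, with 2 at an unadjusted p under 0.05). Ptcra, the pre-T cell receptor alpha chain, was at 3.4 to 23.5 against 5.9 to 10.9, and the sign of its difference turned with the processing.

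**Figure D3:**
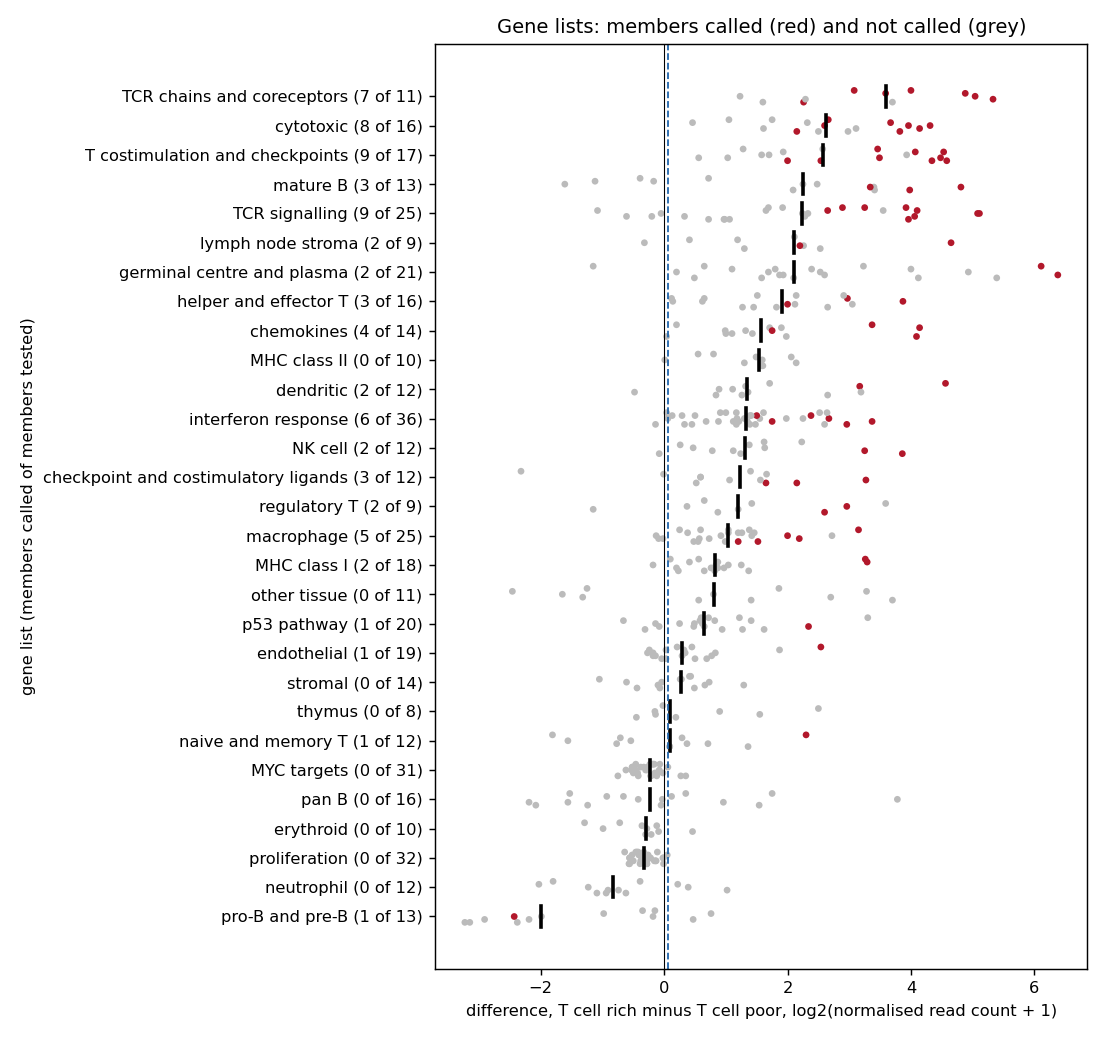
Difference between T cell rich and T cell poor libraries in log2(normalised read count + 1) for each tested gene of 29 lists, 1 point per gene, red where the limma adjusted p was under 0.05; black bars are list medians and the dashed line is the median of all genes (0.07). Receptor chains have the highest median (3.59) and genes of pro-B and pre-B cells the lowest (-1.99).

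Interferon-induced genes mostly had positive differences, but few passed. Of 36 tested, 35 had a positive difference (median 1.33) and 6 passed. Gbp2, Gbp4 and Gbp5, guanylate-binding proteins induced by interferon gamma, passed in every fit that left out 1 library. Gbp4 ran from 59.8 to 364.1 (median 138.6) against 6.0 to 38.3 (median 21.9), a log2 difference of 2.96 ± 0.51 (SE; limma adjusted p = 0.0109). Gbp2 differed by 2.38 (limma adjusted p = 0.0144) and Gbp5 by 1.75 (0.0168), and neither overlapped between the sets. Cxcl9, a chemokine that attracts cells with Cxcr3, ran from 43.2 to 592.0 (median 341.8) against 10.9 to 55.7 (median 15.2), a log2 difference of 3.37 (limma adjusted p = 0.0207). The sets overlapped and the call was lost without WT_late_2, HET_late_4, WT_late_4, WT_late_5 or WT_early_3, with adjusted p up to 0.0578. With genotype and onset class as covariates limma called 0 of the 36, and over the 13 libraries it also called 0, with 13 at an unadjusted p under 0.05. Ubd, a ubiquitin-like protein induced by interferon gamma and tumour necrosis factor, ran from 43.2 to 593.4 (median 227.6) against 1.7 to 9.4 (median 3.4), a log2 difference of 5.10 ± 0.62 (SE; limma adjusted p = 0.00124).

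Of 18 MHC class I presentation genes 17 had a positive difference (median 0.83) and 2 passed, both non-classical class I genes. At an unadjusted p under 0.05 in limma 12 were higher, and DESeq2 called 6 and edgeR 2. H2-Q6 and H2-Q7 (chr17:35424850-35430055 and chr17:35439155-35443773) differed by 3.29 ± 0.54 and 3.26 ± 0.55 on the log2 scale (SE; limma adjusted p 0.00832 and 0.01), with no overlap between the sets. H2-Q7 ran from 198.7 to 1177.2 (median 440.8) against 18.7 to 134.8 (median 38.8). The 2 genes are near-identical copies, so reads may have been shared between them. Both also passed over the 13 libraries (adjusted p 0.00872 and 0.0203) and with the covariates. The classical genes H2-K1 (1.37, adjusted p = 0.0829) and H2-D1 (0.97, 0.105) and the light chain B2m (1.04, 0.0891) did not pass. MHC class II genes had 10 of 10 positive differences with a median of 1.54, and limma called 0 of them (5 at an unadjusted p under 0.05; edgeR 0, DESeq2 1). Over the 13 libraries their median slope was -0.08 per unit of score, with 2 of 10 positive.

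Some myeloid genes were higher too. Of 25 macrophage genes 22 had a positive difference (median 1.04) and 5 passed. Marco, a scavenger receptor, ran from 154.2 to 844.0 (median 366.3) against 8.7 to 88.2 (median 38.2), a log2 difference of 3.15 ± 0.54 (SE; limma adjusted p = 0.0102). Csf1r, the receptor for macrophage growth factor, ran from 799.8 to 2008.5 (median 1019.4) against 276.9 to 701.4 (median 368.5), a log2 difference of 1.52 ± 0.29 (SE; limma adjusted p = 0.0161). Neither gene overlapped between the sets. C1qa, a complement chain made by macrophages, differed by 2.00 (limma adjusted p = 0.0442), and its call was lost without any of the 10 libraries other than WT_early_6 and HET_early_4, with adjusted p up to 0.102. Itgax, which encodes CD11c of dendritic cells, ran from 57.9 to 486.8 (median 341.1) against 12.1 to 39.3 (median 23.5), a log2 difference of 3.17 ± 0.55 (SE; limma adjusted p = 0.0111). Over the 13 libraries Marco still passed (adjusted p = 0.0459) and Itgax did not (0.416). The summed macrophage list was 15034.3 to 49079.4 in the rich and 9121.5 to 14326.7 in the poor set. Its part in the interferon and class I differences was not tested.

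Of 9 genes of lymph node stroma 8 had a positive difference (median 2.11) and 2 passed, Glycam1 and Il7. Glycam1, a mucin of the high endothelial venules through which lymphocytes enter, was at 124.3 in WT_late_2, 10.5 in HET_late_4, 30.2 in HET_late_2, 125.8 in WT_early_6, 14.8 in HET_late_1 and 104.4 in HET_early_4. It was at 0.0 in HET_late_3, WT_early_1 and WT_early_5 and at 1.2 to 4.8 in the other 3 poor libraries. The log2 difference was 4.65 ± 0.72 (SE; limma adjusted p = 0.00609), and the gene passed over the 13 libraries as well (adjusted p = 0.0338). Il7, a cytokine of lymphoid stroma, differed by 2.2 (limma adjusted p = 0.0387), and the call held without HET_late_2, HET_late_1, HET_early_4 or WT_early_3 only, with adjusted p up to 0.0943 without another library. Of 19 endothelial genes 13 had a positive difference (median 0.29) and 1 passed, beside 54.7% positive and 2.04% called higher over all genes. That gene, Prox1, the factor that specifies lymphatic endothelium, differed by 2.54 ± 0.45 (SE; limma adjusted p = 0.0125), with 10.5 to 36.2 against 1.2 to 5.3. In the mature B cell list, Ltb, lymphotoxin beta, which maintains lymph node stroma, ran from 155.7 to 2811.4 (median 386.8) against 5.9 to 35 (median 21.7), a log2 difference of 4.81 ± 0.68 (SE; limma adjusted p = 0.00382). Pla2g2d, a phospholipase of lymphoid dendritic cells and macrophages that was in no list, ran from 55.8 to 2591.9 (median 565.3) against 1.7 to 31.2 (median 19.8), a log2 difference of 5.01 ± 0.81 (SE; limma adjusted p = 0.00732). Collagen-rich stroma did not follow, with 8 of 14 stromal genes positive and limma calling 0 (1 at an unadjusted p under 0.05).

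Over the 12 libraries, B lineage lists leaned in different directions, and limma called few of their members. Of 16 pan-B genes 6 had a positive difference (median -0.23) and limma called 0 (1 higher and 3 lower at an unadjusted p under 0.05). Jchain, the joining chain of secreted IgA and IgM (chr5:88519809-88527891, minus strand), was at 57297.0 in HET_late_4, 5813.7 in WT_late_2, 5558.0 in HET_late_1, 3362.2 in WT_early_6, 2606.9 in HET_late_2 and 288.8 in HET_early_4, and at 2.6 to 266.7 (median 57.5) in the poor set. All rich libraries were higher than every poor one, and the log2 difference of 6.38 ± 1.12 (SE; limma adjusted p = 0.0116) was the largest of all genes called. Igha, in contrast, ran from 186.4 to 752207.8 against 8.7 to 1220.9 and did not pass (limma adjusted p = 0.136). Of 21 germinal centre and plasma cell genes 20 had a positive difference (median 2.1) and 2 passed, Jchain and Rgs13. Over the 13 libraries 15 of the 21 had a positive slope, with a median of 0.16 per unit of score. There limma called 0 of them (8 higher at an unadjusted p under 0.05). The median slope of the mature B cell list was 0.47 there. Rgs13, a G protein regulator of germinal centre B cells, differed by 6.11 (limma adjusted p = 0.0466), lost without any of the 10 libraries other than WT_early_6 and HET_early_4, with adjusted p up to 0.117. Of 13 mature B cell genes 9 had a positive difference (median 2.25, lowest -1.61) and 3 passed, Ltb, Gpr183 and Ccr6. The call of Ccr6 was lost without WT_late_2, HET_late_4, HET_late_1, HET_late_3, WT_early_1, WT_late_4 or WT_early_3, with limma adjusted p up to 0.0714. Gpr183, an oxysterol receptor that positions B and T cells, differed by 3.34 ± 0.64 (SE; limma adjusted p = 0.0168).

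Genes of pro-B and pre-B cells leaned the other way, with 11 of 13 at a negative difference, a median of -1.99 and 1 called. Myb, a factor of lymphoid progenitors, ran from 125.0 to 2031.5 (median 245.3) against 1520.0 to 3574.0 (median 2034.1), a log2 difference of -2.43 ± 0.60 (SE; limma adjusted p = 0.0492). Its call was lost without any of the 10 libraries other than WT_early_6 and HET_early_4, with adjusted p up to 0.114. Myb was at 125.0 to 255.8 in the 4 rich libraries that stood apart on the second component and at 1553.9 and 2031.5 in the 2 rich early ones, WT_early_6 and HET_early_4. Vpreb3, a relative of the surrogate light chain genes, had the same split, with 15.7 to 821.5 in those 4 and 2040.7 and 2321.9 in the early pair (log2 difference -3.23, limma adjusted p = 0.1). Over the 13 libraries the median slope of the list was 0.19 per unit of score, so the lean did not hold without the 5 libraries.

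Among the genes lower in the T cell rich set, only Rd3l and Frat2 of the 12 largest passed in every fit that left out 1 library. Rd3l was at 0.0 to 8.3 (median 0.8) against 16.5 to 216.3 (median 143.3), a log2 difference of -5.20 ± 0.78 (SE; limma adjusted p = 0.00501). Frat2, an activator of WNT signalling, ran from 26.1 to 303.1 (median 123.4) against 345.9 to 740.7 (median 584.0), a log2 difference of -2.53 ± 0.49 (SE; limma adjusted p = 0.0168). Neither passed over the 13 libraries (adjusted p 0.228 and 0.294).

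**Figure D4:**
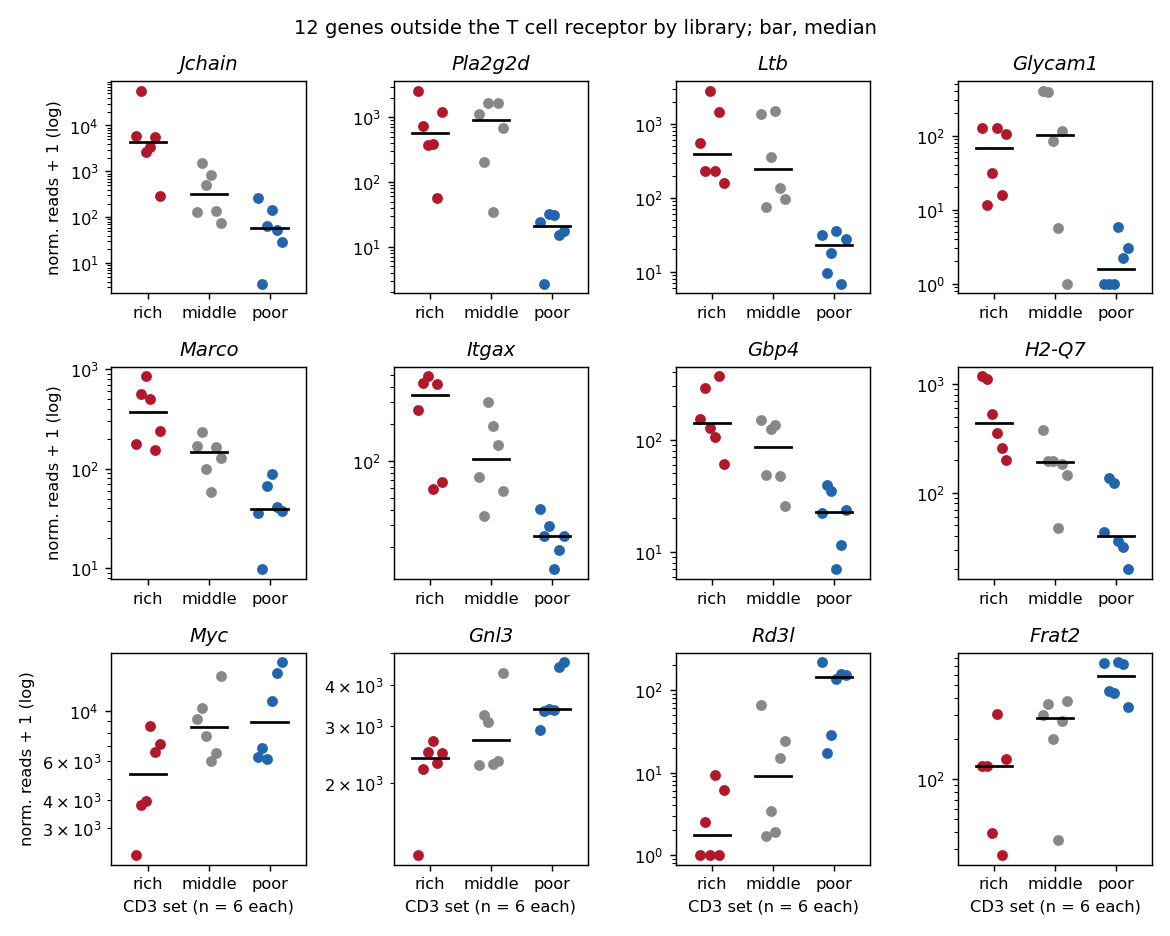
Normalised read counts plus 1 (log axis) of 12 genes outside the receptor in the T cell rich, middle and T cell poor libraries (n = 6 each), 1 point per library and a bar at the median. Jchain, Pla2g2d, Ltb and Glycam1 are higher in every T cell rich library than in any T cell poor one, Rd3l and Frat2 lower, and Myc overlaps between the sets.

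Other settings ended some of these calls, and the genes lost are listed for only some settings. Of 98 genes followed, the call ended for 12 with edgeR, 3 with DESeq2, 11 with array weights and 8 with 5 against 5 libraries. It ended for 6 with the score over 18 libraries, 14 with it over 19, 2 with a pseudocount of 0.1, 3 without a filter and 1 with a mean of at least 10. Those genes are not listed here. With genotype and onset class as covariates, 7 of 7 called receptor chain and coreceptor genes, 8 of 9 signalling genes and 5 of 9 costimulatory and checkpoint genes kept their call, against 4 of 8 cytotoxic, 2 of 5 macrophage, 0 of 6 interferon and 0 of 3 ligand genes. Of the genes named above as called, that fit ended the calls of Ccl5, Gzmk, Txk, Pdcd1, Cd7, Gbp2, Gbp4, Gbp5, Cxcl9, Cd274, C1qa, Il7, Prox1, Gpr183, Ccr6, Rgs13, Myb and Frat2 (limma adjusted p 0.0531 to 0.203). Over the 13 libraries Cd4, Tcrg-C1, Skap1, Txk, Cd27, Pdcd1, Gzmk, Eomes, Klrg1, Cxcr3, Gbp2, Gbp4, Gbp5, Ubd, Cxcl9, Cd274, Csf1r, C1qa, Itgax, Il7, Prox1, Ltb, Pla2g2d, Jchain, Gpr183, Rgs13, Rd3l, Frat2 and Myb did not pass (limma adjusted p 0.0588 to 0.911), which leaves 5 of 7 receptor chain and coreceptor genes. Trac, Trbc1, Trbc2, Trdc, Cd8a, Prkcq, Themis, Gimap3, Cd28, Icos, Cd96, Nkg7, H2-Q6, H2-Q7 and Glycam1 passed in both. Leaving out both T cell rich libraries that Eef1a1 did not lead, also chosen after seeing the data, ended the calls of Marco, Ikzf2, Foxp3, Cd7, Cd27, Tcrg-C1, Txk, Trat1, C1qa, Il7, Ccr6, Rgs13 and Myb (limma adjusted p 0.0507 to 0.141). Quantile normalisation ended those of Tcrg-C1, Trat1, Cd7, Foxp3, Cd274, Cxcl9, Gbp5, C1qa, Il7, Gpr183, Rgs13 and Myb (limma adjusted p 0.0507 to 0.123).

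Myc was lower in the T cell rich tumours, a difference that depended on single libraries. Its RNA, from the transgene and the endogenous gene together, ran from 2270.9 to 8555.7 normalised counts (median 5258.8) in the rich and from 6099.4 to 16554.5 (median 8989.5) in the poor set. The log2 difference of means was -0.95 (exact two-sided permutation p = 0.0411, n = 6 and 6; limma adjusted p over all genes 0.164). It missed 0.05 without WT_late_2, HET_late_4, HET_late_2, WT_late_4, WT_late_5 or WT_early_3, with exact permutation p of 0.0736 to 0.0779. Over the 13 libraries its slope was -0.09 per unit of score (limma adjusted p = 0.795). Of 31 MYC target genes 28 had a negative difference, with a median of -0.23, and limma called 0 (5 at an unadjusted p under 0.05; edgeR 0, DESeq2 1). Gnl3, a nucleolar GTPase and the furthest apart of them, ran from 1207.8 to 2700.1 against 2904.3 to 4679.6 without overlap (log2 difference -0.75, limma adjusted p = 0.0728). Of 32 proliferation genes 31 had a negative difference, with a median of -0.32, and limma called 0 (8 at an unadjusted p under 0.05; edgeR 0, DESeq2 0). Mki67, the proliferation antigen, ran from 3908.5 to 11665.4 against 9219.5 to 13761.1 (limma adjusted p = 0.223).

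Bptf ran from 407.6 to 2391.1 normalised counts (median 1547.3) in the rich and from 1136.7 to 2217.1 (median 2059.5) in the poor set, a log2 difference of -0.63 (exact two-sided permutation p = 0.195, n = 6 and 6). Within genotype the ranges overlapped for wild types, with 1704.5 and 2391.1 in the 2 rich and 1664.7 to 2217.1 in the 5 poor tumours. The 4 rich heterozygotes ran from 407.6 to 1573.3 and the only poor one had 1136.7. Whether a gene's slope on the score differed between genotypes or between onset classes was tested over the 18 ranked libraries with limma. No gene passed for genotype (smallest adjusted p = 0.0656, 1910 genes at an unadjusted p under 0.05) or for onset class (0.168, 1333 genes), and no other tool was run.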

How the data were processed

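RNA of 19 mouse lymphomas was sequenced after selection of polyadenylated RNA. The submitters' processing notes name TopHat2 2.1.1, FastQC 0.11.5, Cuffdiff, Cuffnorm and Cufflinks 2.2.1, and the builds mm10 and GRCm38; the tool behind the table, its annotation and its strand setting were not given. The deposited values are a normalised signal per gene, which the authors obtained by dividing read counts by 1 factor per library: 100.0% of values were whole multiples of 1 read within 0.01 reads, so reads were recovered. Libraries held 8297856 to 12497732 reads, which without molecular identifiers bound only the counting error. The lowest chi-square per gene over 171 pairs of libraries was 13.1, so no library repeated another. Separate tumours were taken as replicates. Antisense and overlapping genes cannot be told apart without the strand setting.

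Libraries were chosen and split by Cd3d, Cd3e and Cd3g, which were not tested. The members, the 29 gene lists and the tests were chosen with earlier results of these data known. The main test was limma 3.58.1 in R 4.3.3, with a mean-variance trend and empirical Bayes, on log2(value + 1) of genes of at least 1 in at least 4 of the 18 ranked libraries, 6 against 6 libraries, no covariates. This scale understates changes of weak genes. Slopes are log2 changes per unit of the score. Single values used exact permutation (924 arrangements) or Fisher's exact tests in SciPy 1.17.1, with pandas 2.3.3, NumPy 2.4.6 and Matplotlib 3.10.9. Recovered reads were also tested with edgeR 4.0.16 and DESeq2 1.42.0. On simulated counts for this comparison over 19552 genes, limma recovered 22.4%, 76.1% and 89.4% of 2-fold, 4-fold and 8-fold changes and called 11 unchanged genes.

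Named genes were Myc, Bptf and the CD3 genes, the 12 largest called differences in each direction with a mean of at least 20 in the higher set, the 5 members of each list with the lowest p, and all members of the receptor chain and regulatory T cell lists, passing over predicted genes and leaving out genes not reported here; Lck, Zap70, Cd2, Trat1, Gzmk and Pdcd1 were named after their values were seen. Alternatives were another pseudocount (0.1), filters, quantile normalisation, array weights, covariates, 5 against 5 libraries, the score as a number and leaving out each library. Of the symbols 16109 were found in GENCODE M21; 23 symbols that read as dates were left as deposited.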

Additional observations from a re-analysis of the deposited data

Results flagged for a closer look

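Of 264 sets of 6 values looked at (103 genes and 29 list scores in both sets), 18 held a library far from the other 5. Chance gives about 5%, so the share flagged was near that of chance. That rate does not apply where the other 5 values are all 0.0, since any read in the remaining library is then flagged.

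In the T cell rich set, Lrrc32, a surface protein of regulatory T cells, stood at 565.7 normalised counts in WT_late_2 against 56.2 to 114.4 in the others, and Gnl3 at 1207.8 in the same library against 2210.2 to 2700.1. Ccr6, a chemokine receptor of mature B cells and some T cells, was at 0.0 in HET_late_2 against 17.4 to 79.8. The mean log2 level of the other-tissue list was 7.41 in WT_early_6 against 2.74 to 3.69, and that of the proliferation list 9.89 in HET_late_4 against 10.56 to 10.82.

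In the T cell poor set, WT_early_1 had the low values of Il7r (7.0 against 317.4 to 1922.7), of Pla2g2d (1.7 against 14.1 to 31.2) and of the lymph node stroma list (2.77 against 3.84 to 4.16). The same library had 9.6 of Timd2, a TIM family receptor, and 0.9 each of Trdc and Tcrg-C1, all listed at 0.0 in the other 5. WT_early_5 was high for Nrp1 (227.0 against 97.9 to 134.2), for the other-tissue list (6.72 against 1.58 to 3.41) and for the pro-B and pre-B list (9.96). In that library Klrg1 was 0.9 against 0.0 in the others, and Pacsin1 was 0.0 against 1.6 to 2.6. Ccr6 was 2.4 in WT_late_5 against 0.0, and the chemokine list score was 5.41 in HET_late_3 against 3.46 to 4.10. Values of 0.9 are 1 read.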

How the results depend on the processing

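Of 447 genes called (399 higher, 48 lower), the total moved to 167 (143 and 24) under quantile normalisation, 1699 (1352 and 347) with DESeq2, 158 (151 and 7) with genotype and onset class as covariates and 1842 (1027 and 815) with the score as a number over 18 libraries. The share higher was 79.6% with DESeq2 and 55.8% with that score. The lower count alone moved to 30 with edgeR (total 503), 124 with the 5 highest against the 5 lowest (total 615, 79.8% higher) and 194 with the score over 19 libraries (total 632, 69.3% higher). A pseudocount of 0.1 (454), no filter (424), a mean of at least 10 (419) and array weights (494) stayed within 1.5 times. Of 2 alternatives chosen after seeing the data, leaving out both T cell rich libraries led by a gene other than Eef1a1 gave 225 (196 and 29), and the score over the 13 libraries not apart on the second component gave 83 (83 and 0). Leaving out each library gave totals of 185 to 861, with 178 to 674 higher and 7 to 187 lower. Quantile normalisation moved the median of all genes from 0.07 to -0.07, a shift beyond 0.1, and the receptor chains kept positive differences beside it. The difference in Myc was -0.98 under quantile normalisation (exact permutation p = 0.0563) and -1.11 to -0.73 over the leave-one-out fits; that in Bptf was -0.83 to -0.32. Among named genes not called, signs turned for Cd247 (-2.01 in edgeR, -1.96 in DESeq2), Il2ra (0.08 with 5 against 5, 0.01 over the 13 libraries), Il7r (0.05 over the 13 libraries) and Ptcra (-0.32 under quantile normalisation, -0.02 with array weights, -0.12 with covariates, -0.20 over the 13 libraries, and -0.05 to 0.45 over the leave-one-out fits, negative without HET_late_1 or HET_late_2). The cause of these changes was not tested. Of 74 described genes that were called, 43 were called in every leave-one-out fit. At the depth of a T cell poor library a value near 1 is 1 read, so differences among genes at 0 to 3 there were not detectable. No paired analysis was possible because the replicate numbers only name tumours and the sets cut across the groups.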
